A study of Mus musculus with 4 samples.

Results

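The dystrophin-glycoprotein complex was described through 8 of its genes, taken by symbol: Dmd (dystrophin), Utrn (utrophin), Dag1 (dystroglycan), Sgca, Sgcb and Sgcd (alpha-, beta- and delta-sarcoglycan), Sspn (sarcospan) and Dtna (alpha-dystrobrevin). A gene counted as measured when a probe set carried its symbol and no other, and it was represented by the probe set with the highest mean over the 4 arrays. All 8 were measured, among 18193 genes with such a probe set, and all 8 were among the 15103 genes whose representative lay above the 25th percentile of all probe sets. The 8 genes had 25 probe sets in all, and the less bright ones are described beside the representatives.

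The tissue was the tibialis cranialis, a muscle of the front of the lower leg, of 8 male C57Bl/6 mice that were 22 weeks old at collection. All of them had been on a high fat diet since 8 weeks of age. After 4 weeks of the diet AAV8 ProMyo, an adeno-associated virus vector given to inhibit myostatin, went into this muscle in one leg and saline into that of the opposite leg, and 10 weeks passed before collection. Each group had 2 arrays, a pool of RNA from animals 1-4 and a pool from animals 5-8, so a group was represented by pools of 4 animals and not by single mice. The control leg had no empty vector, and no group on regular chow was analysed here. The comparison addresses which muscle genes respond to inhibition of myostatin, a secreted inhibitor of muscle growth, under this diet.

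The complex links the actin cytoskeleton inside a muscle fibre, through the fibre membrane, to laminin in the surrounding basement membrane. Dystrophin binds actin at one end and dystroglycan at the other, the sarcoglycans and sarcospan form a subcomplex in the membrane, and dystrobrevin and the syntrophins sit on the cytoplasmic side and anchor signalling proteins such as neuronal nitric oxide synthase. Utrophin is a paralogue of dystrophin that is concentrated at the neuromuscular junction in adult fibres. Loss of dystrophin or of a sarcoglycan leaves the membrane fragile and causes muscular dystrophy.

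Dmd is known for several promoters: upstream ones drive full-length dystrophin, and ones far downstream drive short products that share its C-terminal end. The arrays give the signal of a probe set and not of a start, so the Dmd values below are not assigned to either of the starts shown here. Both windows are the 250 bases before a start in the RefSeq promoter table (GRCm38.p6), on the plus strand at chrX:82948620-82948869 for the first and chrX:85048045-85048294 for the second, 2099425 bases downstream. Capitals mark each match to an E-box (CANNTG, the motif bound by myogenic basic helix-loop-helix factors) or a GC box (GGGCGG), searched on both strands with overlaps counted.
Dmd first start: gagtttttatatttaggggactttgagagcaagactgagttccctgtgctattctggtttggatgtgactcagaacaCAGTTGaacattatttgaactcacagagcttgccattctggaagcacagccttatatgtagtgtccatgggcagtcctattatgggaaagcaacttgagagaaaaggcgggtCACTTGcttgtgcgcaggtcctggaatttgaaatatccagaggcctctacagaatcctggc
Dmd downstream start: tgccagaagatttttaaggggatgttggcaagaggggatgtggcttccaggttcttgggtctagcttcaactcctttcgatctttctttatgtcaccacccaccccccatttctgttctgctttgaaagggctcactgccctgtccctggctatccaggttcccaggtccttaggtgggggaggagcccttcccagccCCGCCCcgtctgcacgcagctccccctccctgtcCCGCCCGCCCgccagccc
The first window held 2 E-boxes and 0 GC boxes and had a GC content of 45.2%, and the downstream window held 0 E-boxes and 3 GC boxes, with a GC content of 60.0%. Of 32536 promoter windows of this length, 66.2% held an E-box and 33.0% a GC box. Among the other genes, Sgca had 1 E-box, Sgcb 1 GC box, Sgcd 2 E-boxes and 1 GC box, the window of Utrn 7 E-boxes, both windows of Dag1 3 GC boxes and 1 E-box each, and of the 2 Sspn windows 1 held 1 E-box and the other no match. These matches are letters in a window and were not tied to any value of the arrays. Windows of Dtna are not reported here.

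The deposited log2 values had a median of 1.06 to 1.11 by array. The saline 5-8 array stood apart: its upper quartile was 2.97, where the others had 3.15 to 3.19, and its hybridization controls averaged 11.1, where the others had 10.1 to 10.2. Probe sets for Bacillus transcripts served as the background, and the brightest of them read 0.57 to 0.99 by array. The muscle fibre markers were present in every array, with a mean log2 level of 11.3 to 11.4 over 12 of 12 genes that include Acta1, Ckm and Myh4. The 3' minus 5' signal of the Gapdh controls, which rises with RNA degradation, was 0.58 and 0.74 in the ProMyo arrays and 0.90 and 0.81 in the saline arrays, and its part in the values below was not tested. Of the Schwann cell markers, Mag was within the background in all 4 arrays, and of the adipocyte markers Adipoq ran from 0.81 to 2.27.

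The complex genes differed little between ProMyo and saline muscle. Their 8 differences, ProMyo minus saline, ran from -0.12 to 0.13 on the log2 scale, with a median of 0.05 beside 0.01 over all genes tested. The median size of a difference was 0.06 beside 0.16. The 8 genes were also brighter, with a mean level of 6.22 to 6.38 by array beside 3.21 to 3.31 over all genes. The comparison of sizes was not matched for level, and the part of level in it was not tested. None of the 8 passed the test (limma, adjusted p between 0.947 and 0.998), and 0 of them had an unadjusted p under 0.05. Over all 15103 genes limma called 0 (0%) after adjustment and 874 (5.79%) at an unadjusted p under 0.05. A p above the threshold does not show equal levels. The 95% intervals of the 8 differences, at their widest, reached from 0.570-fold to 1.59-fold of saline, so that each of the 8 lay inside a 2-fold change either way. This held for the brightest probe sets with all 4 arrays. At the next brightest probe set of the 6 genes that had one, the interval reached past a 2-fold change for 4: Dag1 (-1.16 to -0.14), Dmd (-1.02 to 0.89), Dtna (-0.06 to 1.35) and Sspn (0.11 to 1.18), on the log2 scale. With 1 array left out, 5 or 6 of the 8 intervals stayed inside a 2-fold change.

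**Figure D1:**
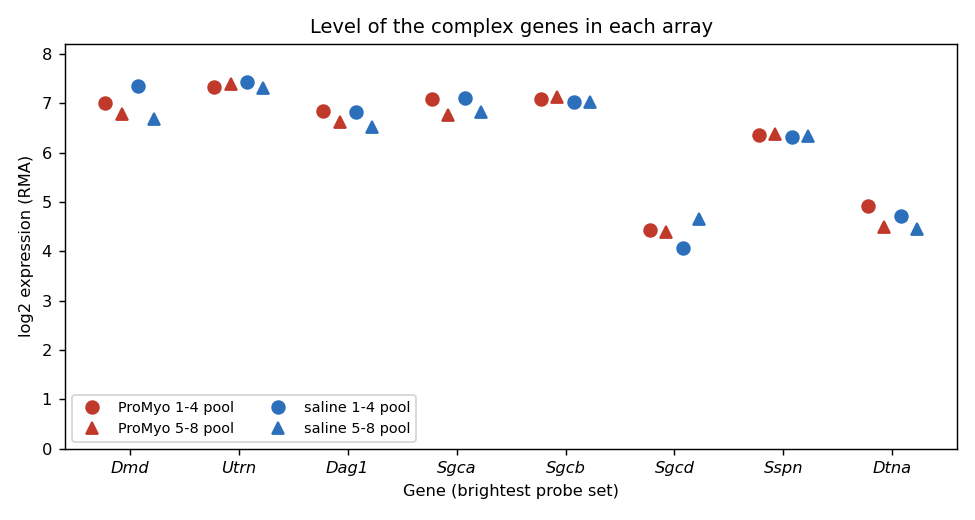
Log2 expression of the representative probe set of each gene (y axis) in each array, red for ProMyo and blue for saline muscle, circles for the pool of animals 1-4 and triangles for the pool of animals 5-8. Red and blue points lie close together within each gene, and the spread between pools is widest for saline Dmd (7.36 and 6.68) and saline Sgcd (4.06 and 4.65); levels of different genes are read by different probes and are not comparable.

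Dmd, the cytoskeletal link of the complex, was at 7.00 in the ProMyo 1-4 array and 6.78 in ProMyo 5-8, and at 7.36 in saline 1-4 and 6.68 in saline 5-8. Both ProMyo values lay between the saline values, so the groups overlapped. The difference was -0.12 ± 0.27 (log2 ± SE, n = 2 pools per group, limma, adjusted p = 0.96), with a 95% interval of -0.81 to 0.56. Within pool 1-4 ProMyo muscle was lower by this probe set, at -0.35, and within pool 5-8 it read 0.10. The next brightest Dmd probe set gave the same order of arrays, from 6.97 in saline 1-4 and 6.74 in ProMyo 1-4 to 6.15 in ProMyo 5-8 and 6.04 in saline 5-8, with a difference of -0.07. The remaining Dmd probe sets were dim: the third, with a mean of 1.55, differed by 0.24, and the fourth, with a mean of 0.51, was above background on 1 array. Without the saline 1-4 array the Dmd difference was 0.22, and without saline 5-8 it was -0.46.

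Utrn, the dystrophin paralogue, was at 7.32 and 7.38 in the ProMyo arrays of pools 1-4 and 5-8 and at 7.43 and 7.30 in the saline arrays. The 4 values lay within 0.13 of each other, the groups overlapped, and the difference was -0.01 ± 0.16 (log2 ± SE, n = 2; limma, adjusted p = 0.998), with an interval of -0.41 to 0.39. A dimmer Utrn probe set, with a mean of 3.13, differed by 0.32. That value came from pool 1-4 alone, where the ProMyo array read 3.51 and the saline array 2.86, while both arrays of pool 5-8 read 3.06. The third Utrn probe set, with a mean of 0.89, was near the background.

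Dag1 encodes both dystroglycan subunits, which are cut from a single precursor; alpha-dystroglycan binds laminin and beta-dystroglycan binds dystrophin. Its representative was at 6.85 and 6.62 in the ProMyo arrays of pools 1-4 and 5-8 and at 6.82 and 6.52 in the saline arrays. ProMyo was above saline in both pools, by 0.03 and 0.10, but the groups overlapped and the difference was 0.06 ± 0.19 (log2 ± SE, n = 2; limma, adjusted p = 0.97). The 3 dimmer probe sets of Dag1, with means of 3.30 to 3.65, went the other way in both pools, with differences of -0.65, -0.21 and -0.36. The first of them read 3.26 and 3.39 in the ProMyo arrays against 4.16 and 3.79 in the saline arrays. Its groups did not overlap, and its difference of -0.65 ± 0.20 had an unadjusted p of 0.022 and an adjusted p of 0.76 (limma over all probe sets). By their names, 2 of these 3 are of the type whose probes can match other sequences and the third is of the type that matches several transcripts of a gene. Which Dag1 reading follows the transcript was not tested.

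Of the sarcoglycans, Sgca was at 7.09 and 6.76 in the ProMyo arrays and at 7.11 and 6.81 in the saline arrays of pools 1-4 and 5-8. It was lower in ProMyo muscle in both pools, at -0.02 and -0.06, with overlapping groups and a difference of -0.04 ± 0.21 (log2 ± SE, n = 2; limma, adjusted p = 0.99). Sgcb was at 7.08 and 7.12 in the ProMyo arrays and at 7.03 and 7.02 in the saline arrays. Both ProMyo values of Sgcb lay above both saline values, by a difference of 0.08 ± 0.15 (limma, adjusted p = 0.95), or 1.05-fold with an interval of 0.805-fold to 1.38-fold. The next brightest Sgcb probe set also had both ProMyo arrays on top, 5.52 and 5.68 against 5.39 and 5.37, and the third, with a mean of 4.03, had both below. Sgcd was at 4.43 and 4.39 in the ProMyo arrays, and at 4.06 and 4.65 in the saline arrays of pools 1-4 and 5-8. Its ProMyo values lay between the saline values, so its difference of 0.05 ± 0.24 (limma, adjusted p = 0.99) was the mean of 0.37 in pool 1-4 and -0.26 in pool 5-8.

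Sspn, a tetraspanin-like membrane protein bound to the sarcoglycans, was at 6.35 and 6.38 in the ProMyo arrays and 6.31 and 6.34 in the saline arrays. It was higher by 0.04 in each pool, and the fitted difference was 0.04 ± 0.15 (log2 ± SE, n = 2; limma, adjusted p = 0.98). The other Sspn probe set gave a larger difference, with 5.76 and 5.94 in the ProMyo arrays against 5.00 and 5.41 in the saline arrays. That is 0.76 in pool 1-4, 0.53 in pool 5-8 and 0.65 ± 0.21 in the fit over all probe sets (unadjusted p = 0.026, adjusted p = 0.76). The representative of Sspn read -0.022 with quantile normalization, so its own direction was not settled.

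Dtna, the dystrobrevin of muscle and part of the cytoplasmic side of the complex, was at 4.91 and 4.50 in the ProMyo arrays of pools 1-4 and 5-8 and at 4.71 and 4.45 in the saline arrays. ProMyo lay above saline within each pool, with overlapping groups, by 0.13 ± 0.21 (log2 ± SE, n = 2; limma, adjusted p = 0.95), the largest difference of the 8. Without the saline 5-8 array it was -0.001. Its next brightest probe set read 4.22 and 4.52 against 4.05 and 3.38, a difference of 0.65 ± 0.28 (limma over all probe sets, adjusted p = 0.76). This was 0.16 in pool 1-4 and 1.14 in pool 5-8, where the saline 5-8 array was the low value. Of the 5 other Dtna probe sets 1 lay in the background and 4 differed by -0.14 to 0.20.

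**Figure D2:**
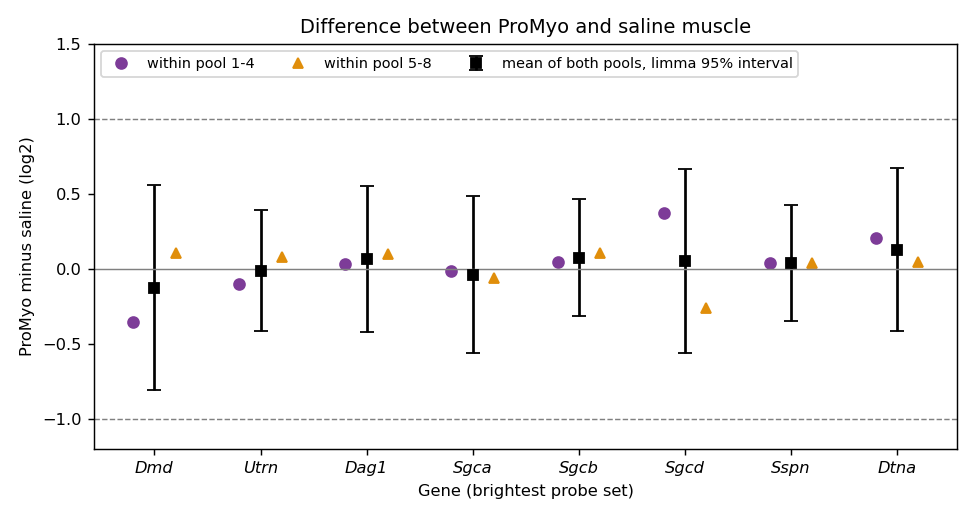
Difference between ProMyo and saline muscle on the log2 scale (y axis) for each gene. Squares with bars give the limma estimate and its 95% interval from 2 pools per group, circles and triangles the difference within pools 1-4 and 5-8, and dashed lines a 2-fold change. Every bar crosses 0 and stays within the dashed lines, and the pools point in opposite directions for Dmd, Utrn and Sgcd; the signs of Dag1, Sspn and Sgcd turn with quantile normalization.

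By direction, ProMyo muscle was above saline muscle in pool 1-4 and in pool 5-8 for 4 of the 8 genes (Dag1, Sgcb, Sspn and Dtna), beside 29.0% of all genes tested, 1 (Sgca) was lower in both, beside 24.0%, and 3 were mixed. These directions depended on the scaling: with arrays centred on their medians 0 of the 8 were higher in both pools and 2 lower, and with quantile normalization 1 was higher and 2 were lower. Both ProMyo arrays lay above both saline arrays for 2 of the 8 (Sgcb and Sspn), beside 17.8% of all genes, and below for 0 of the 8, beside 15.7%. No member differed by 1.5-fold or more in the same direction in both pools, which 1.60% of all genes did.

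Differences between the pools of animals were larger than those between the legs for 6 of the 8 genes, beside 50.8% of all genes tested. Dmd, Dag1, Sgca and Dtna were higher in pool 1-4 than in pool 5-8 in ProMyo and in saline muscle alike (4 of 8, beside 34.8% of all genes). Averaged over both muscles, the pool difference was 0.45 for Dmd, 0.33 for Dtna, 0.31 for Sgca and 0.26 for Dag1. Sgcd went the other way, at -0.28, with -0.60 in saline muscle and 0.04 in ProMyo muscle. Utrn, Sgcb and Sspn differed by 0.04 or less in size between the pools. The saline 5-8 array, which stood apart in its controls, is part of this contrast. In ProMyo muscle alone the pool difference was 0.22 for Dmd, 0.41 for Dtna, 0.33 for Sgca and 0.23 for Dag1.

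Across the 25 probe sets, 24 passed the filter on low values. Of these 24, 6 had both ProMyo arrays above both saline arrays, beside 18.3% of all 33787 probe sets tested, and 6 had both below, beside 15.5%. An unadjusted p under 0.05 was found at 2 of the 24, the second Dag1 and the second Sspn probe set described above, in opposite directions, beside 6.30% of all probe sets. After adjustment limma called 0 of the 24, beside 0.00296% of all. Probe sets of a gene share a target and are not independent.

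**Figure D3:**
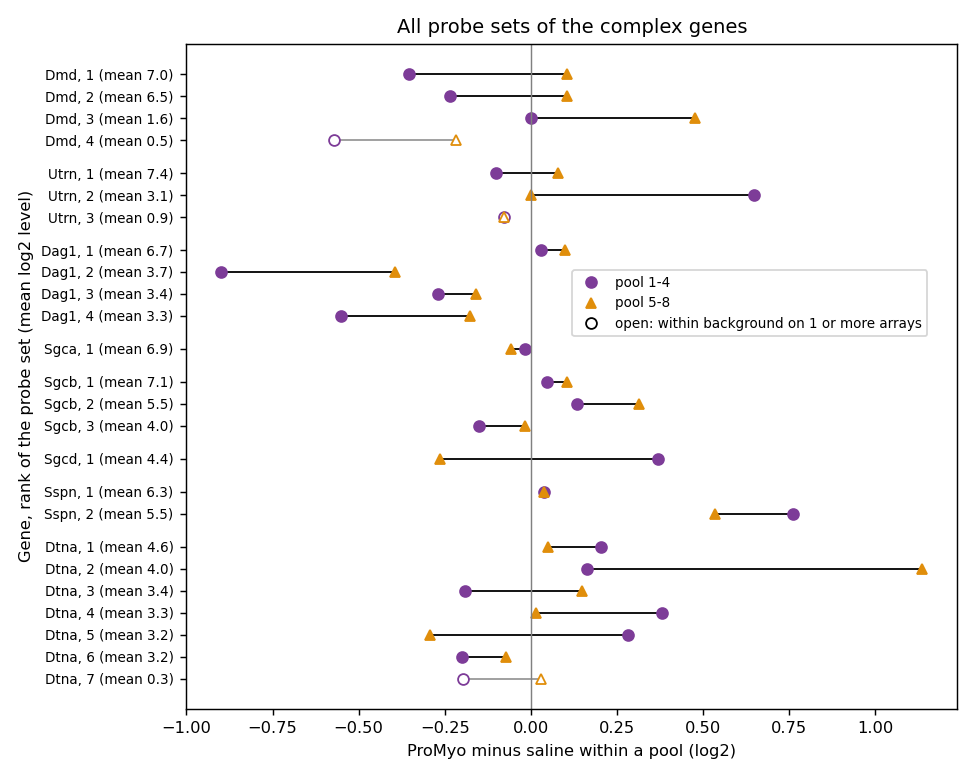
Difference between ProMyo and saline muscle within pool 1-4 (circles) and pool 5-8 (triangles) on the log2 scale for each of the 25 probe sets, ordered within a gene from the brightest, with its mean level in brackets. Open symbols mark probe sets that were within the background on 1 or more arrays. Averaged over the pools, the representatives (rank 1) run from -0.12 to 0.13 and the second probe sets of Dag1, Sspn and Dtna stand at -0.65, 0.65 and 0.65; within a pool, representatives reach -0.35 for Dmd and 0.37 for Sgcd.

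Of 10 further genes of the complex 7 were measured, that is, had a representative above the filter, with a median difference of -0.03. None passed limma's test, 3 were lower in both pools and 1 higher. The largest difference was at Sntb1 (beta1-syntrophin, an adaptor that binds dystrophin and dystrobrevin), which was named for having the smallest p of this list. It read 4.44 and 4.47 in the ProMyo arrays against 5.01 and 5.26 in the saline arrays. The groups did not overlap, and the difference was -0.68 ± 0.17 (log2 ± SE, n = 2; limma, unadjusted p = 0.010, adjusted p = 0.82). The 3 other Sntb1 probe sets above background on all 4 arrays also had both ProMyo arrays below both saline arrays, with differences of -0.25, -0.47 and -0.35. Of all probe sets tested, 15.5% lay that way. By their names, the Sntb1 representative and the probe set at -0.35 are of the type whose probes can match other sequences. Nos1, the neuronal nitric oxide synthase held by the syntrophins, was at 5.79 and 5.87 in ProMyo and 5.60 and 5.95 in saline muscle, a difference of 0.05 ± 0.19, and its 3 dimmer probe sets read -0.22, -0.38 and -0.27. Sgce (epsilon-sarcoglycan) differed by 0.17 ± 0.18. Sntb2, another syntrophin, stood at -0.24 ± 0.16, and Sntg1, above background on only 2 of the 4 arrays, at 0.31. Sntb2 was dim, with a mean of 1.09.

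Alpha-dystroglycan binds laminin only after a chain of enzymes has built a sugar on it. Of 17 such genes 13 were measured, with a median of -0.01, 4 lower and 4 higher in both pools, and 0 past the test. Pomk, a kinase of the mannose that starts the sugar, read 3.41 and 3.74 in ProMyo and 4.50 and 3.99 in saline muscle. Its difference was -0.68 ± 0.24 (limma, adjusted p = 0.82), while its next probe set, almost as bright, differed by -0.18. By its name, the Pomk representative is of the type whose probes can match other sequences. Gmppb, which makes the GDP-mannose donor, stood at 0.70 ± 0.28, with its saline 5-8 value of 0.71 within the background. Pomt1, an O-mannosyltransferase, stood at -0.42 ± 0.19, and B3galnt2, a glycosyltransferase of the core sugar, at 0.37 ± 0.18. The next B3galnt2 probe set, with a mean of 5.77, read 0.16.

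Of the 9 matrix ligands of dystroglycan, all measured, 3 were higher and 2 lower in both pools, with a median of 0.04. Lama2, the laminin alpha2 chain of the muscle basement membrane, was at 5.50 and 5.79 in ProMyo and 5.76 and 5.44 in saline muscle (0.04 ± 0.20), and Agrn (agrin) differed by -0.10 ± 0.28. Lama4, a laminin chain of vessels, stood at 0.41 ± 0.20, Lamb1 at 0.20 ± 0.18, Lama5 at 0.13 and Lamc1 at -0.15. The next probe set of Lama5 read -0.21 and that of Lamc1 -0.46, and the next ones of Lamb1 read 0.46 and -0.19. Of 21 genes of the costamere, the membrane-bound lattice where the complex sits, and of membrane repair, 19 were measured, with 8 higher and 3 lower in both pools and a median of 0.01. Itga7, the integrin chain that pairs with Itgb1 in the other laminin receptor of the fibre, read 3.14 and 3.25 in ProMyo and 2.81 and 2.76 in saline muscle. Its groups did not overlap, by 0.41 ± 0.16 (limma, adjusted p = 0.82). Ank3 (ankyrin-G) stood at 0.43, Cav3 (caveolin-3) at 0.35 and Vcl (vinculin) at 0.26 ± 0.15. The next Ank3 probe set, almost as bright, read 0.14, and the dimmer ones above background on all 4 arrays read 0.09, 0.59 and 0.07. None of these ligand and costamere genes passed the test.

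At the neuromuscular junction, where utrophin is concentrated, 10 of 10 postsynaptic genes were measured, with a median of -0.05, 3 lower and 2 higher in both pools and 0 past the test. Rapsn (rapsyn, which clusters acetylcholine receptors) read 1.99 in both ProMyo arrays against 3.04 and 2.58 in saline muscle, -0.82 ± 0.21 (limma, unadjusted p = 0.010, adjusted p = 0.82). Chrna1, a receptor subunit, stood at 0.14 ± 0.16, and Chrnd was within the background on all 4 arrays. Musk, the receptor kinase of the junction, stood at 0.20 ± 0.24 and was above background on 3 arrays. Utrn also rises in regenerating fibres. Of 7 regeneration markers 3 were higher and 1 lower in both pools, with a median of -0.01 and 0 past the test. Actc1, a cardiac and embryonic actin, stood at 1.30 ± 0.31 and Ncam1, an adhesion molecule of satellite cells and new or denervated fibres, at 1.00 ± 0.30, whereas its next probe set stood at -0.56. Myh3 (embryonic myosin) was at -0.40 ± 0.20 and Myh8 (perinatal myosin) at 0.16 ± 0.17. Myh3 was near the background, at 0.79 to 1.48 by array.

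**Figure D4:**
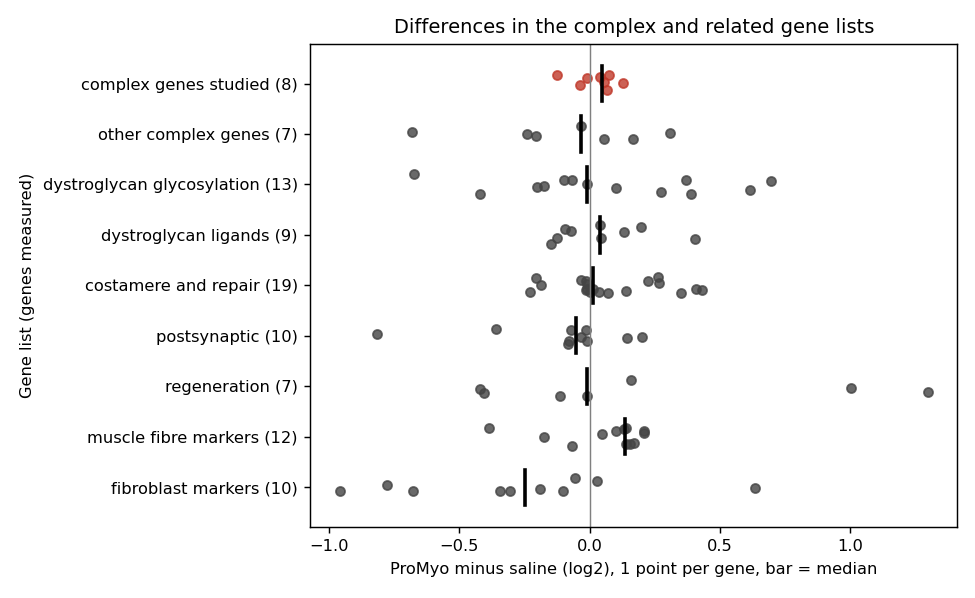
Difference between ProMyo and saline muscle (log2, x axis) for each measured gene of the lists on the y axis, with a bar at the median. The complex genes, in red, lie between -0.12 and 0.13 around a median of 0.05; the median of the muscle fibre markers is 0.13 and that of the fibroblast markers -0.25.

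In whole muscle, more or fewer cells of a type and more or less RNA per cell cannot be told apart, and several complex genes are also used outside fibres, as Utrn is in endothelium. The fibre markers had a median of 0.13, with 9 of 12 higher and 2 lower in both pools, and Mylpf and Actn3 each at 0.21, Myh2 at -0.39 and Ttn at -0.17. The 10 endothelial markers had a median of 0.10 (5 higher, 0 lower), their mean level was 3.42 to 3.77 by array, and Cdh5, Cldn5, Tie1 and Egfl7 stood at 0.18, -0.30, 0.51 and 0.22. The 10 smooth muscle and pericyte markers had a median of 0.04 (4 higher, 1 lower). Of them Tagln stood at 0.78, Acta2 at -0.46, Smtn at 0.30 and Pdgfrb at 0.19, and the next Pdgfrb probe set at 0.53. The 7 measured Schwann cell markers had a median of -0.14 (1 higher, 2 lower), with Ngfr at 0.21, Mag at -0.21, Pmp22 at -0.14 and Mbp at -0.76. The next Mbp probe set, almost as bright, read -0.07, and the 2 after it -0.34 and -0.28. Ngfr was dim, at 0.38 to 0.79, and its other probe sets read -0.21 and -0.57. Of the fibroblast markers 8 of 10 read lower in each pool and 1 higher, with a median of -0.25, Col1a2 at -0.78, Pi16 at -0.96, Col1a1 at -0.68 and Lum, in the other direction, at 0.63, and their mean level was 6.16 and 6.21 in the ProMyo arrays against 6.44 and 6.49 in the saline arrays. Of the macrophage markers 4 of 10 read lower in each pool and 1 higher, with a median of -0.19, C1qb at -0.48, Mrc1 at -0.45, Adgre1 at -0.31 and Cd163, in the other direction, at 0.37, and mean levels of 3.79 and 3.66 against 3.96 and 3.78. The other C1qb probe sets read -0.39 and 0.03, the next Col1a2 probe set -0.35 and the other Col1a1 probe set -0.88. By their names, the Egfl7, C1qb and Mbp representatives are of the type whose probes can match other sequences. The 5 measured satellite cell markers ran from -0.20 to 0.09, with Chodl the lowest, Vcam1 at -0.19, Sdc4 at -0.11 and Pax7 the highest. The 5 measured adipocyte markers had a median of -0.05, with Retn at -0.46, Adipoq at -0.60, Car3 at 0.15 and Fabp4 at -0.05. Adipoq was mixed, at 0.27 in pool 1-4 and -1.47 in pool 5-8, where the saline 5-8 array was the high value. The other Fabp4 probe sets, with means of 9.34, 3.13 and 1.47, read -0.02, 1.05 and -0.26. No marker passed limma's test over all genes, and the part of these cells in the values of the complex genes was not tested.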

How the data were processed

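Total RNA of the tibialis cranialis, mixed in equal parts from 4 animals per array, was extracted with Tri-reagent and labelled with Nugen Ovation V2 and Encore Biotin kits, per the labels' protocols. Per the submitters' processing notes, the authors used Affymetrix Expression Console and RMA to make the deposited log2 values per probe set. The base of the logarithm was read as 2 from their range, since it, like each version, is not given in the labels. Array medians near 1 are low for RMA, so folds hold on the deposited scale. Arrays have no read depth; 2 per group limit the precision.

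The table held 45101 probe sets, 34958 of them with 1 symbol, 932 with several and 9211 with none; 64 controls were left out of tests. Current symbols came from RefSeq through the gene identifier (34754 matched). Genes whose brightest probe set lay below the 25th percentile (0.45) were left out. The test of ProMyo against saline used limma 3.58.1 (R 4.3.3; lmFit, eBayes without trend, Benjamini-Hochberg over all genes, threshold 0.05; 2 residual and 3.16 prior degrees of freedom). A probe set was within background at or below the highest of 27 Bacillus controls of its array. The script was tested on simulated data.

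Both legs came from the same mice, so same-numbered pools were paired by design; their deviations correlated with r = 0.16 across genes. The test leaves the pairing out. Its p-values rest on the spread between these pools and not between single mice. Through the prior, that spread is partly that of all genes tested and not of the gene itself. For Sspn the SE was 0.15, while the SD within each group was 0.019, so its SE came largely from the prior. The members and gene lists were chosen with earlier results of these data known. Named genes were the members, the closest partners and up to 4 genes per list with the smallest p. Alternatives were the block, 2 other filters, a variance trend, 2 scalings, the mean of or the next probe set, other thresholds and folds, and each array left out; the count of intervals inside a 2-fold change was added after seeing the data. Listed genes without a single-symbol probe set above the filter were not analysed here.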

Additional observations from a re-analysis of the deposited data

How the results depend on the processing

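No setting moved a complex gene past the threshold over 94 alternative values. With all 4 arrays, limma called 0 genes in every alternative fit over genes, 0 with the replicate block (paired pools) included. With that block 1039 genes had an unadjusted limma p under 0.05. The limma fit over all probe sets, used for the next brightest probe sets, called 1 of 33787. With the paired pools as a block the Dmd difference was -0.12 ± 0.19 (adjusted p = 0.88); in this balanced design a block changes the error and not the difference, and it changed no call. In 34 of the 94 values the difference is fixed by construction, and signs turned in 17 of the other 60, for each gene except Sgcb in at least 1. With quantile normalization Dag1 read -0.011, Sgcd -0.015 and Sspn -0.022. With the mean of probe sets Utrn read 0.078 and Dag1 -0.29, and at the next brightest probe set Utrn read 0.32 and Dag1 -0.65. Without an array, Dmd ran from -0.46 to 0.22, Utrn from -0.074 to 0.052, Dag1 from -0.084 to 0.21, Sgca from -0.20 to 0.13, Sgcd from -0.24 to 0.35 and Dtna from -0.078 to 0.33. The median of the 8 was 0.017 with median-centred arrays, -0.019 with quantile normalization, 0.27 over the 6 next brightest probe sets and -0.038 to 0.10 without an array. The count higher in both pools was 0 with median-centred arrays and 1 with quantile normalization. The count lower in both was 2 with either scaling and with the mean of probe sets. Without an array, the lone array of a group was set against each array of the other group, also across pools. By both of these differences 2 to 6 of the 8 were higher and 0 to 3 lower. Of the 8 intervals, 5 to 6 lay inside a 2-fold change without an array, and 5 without ProMyo 5-8 or without saline 5-8. Genes at least 1.5-fold apart in both pools numbered 241, 148 with the mean of probe sets, 1281 at a lower fold limit and 23 at 2-fold. Without an array, 421 to 1095 were that far apart in both differences from the lone array. The medians of the other gene lists moved by at least the SD of their pool medians in 34 of 126 alternatives. That of the other complex genes was -0.20 with the mean of probe sets. The fibre markers had 0.08 with quantile normalization and the adipocyte markers -0.25 with the filter at the 50th percentile. The fibroblast median was -0.34 without saline 1-4 and -0.15 without saline 5-8. The cause of these changes was not tested. Leaving out an array leaves 1 residual degree of freedom and assumes that the lone array varies like the other group.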
